A study of Mus musculus with 6 samples.

Results

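The 7 transcription factors best known for driving epithelial-mesenchymal transition (EMT), Snai1, Snai2, Twist1, Twist2, Zeb1, Zeb2 and Prrx1, were followed in RNA sequencing of mouse glioblastoma (GBM) neurospheres labelled ATRX knockout or ATRX wild type. The members were taken by name, and all 7 were among the 13069 genes of the deposited table. ATRX is a chromatin remodeller that is often lost in glioma. The knockout cultures held Snai1, Twist1 and Twist2 at levels that the wild-type cultures did not approach, while Zeb1, the most abundant of the 7 in wild type, was lower. The libraries fell into 2 genotypes, 3 labelled ATRX knockout (ATRX KO) and 3 labelled ATRX wild type (ATRX WT). Both came from tumours that Sleeping Beauty transposon plasmids had started in the ventricles of newborn mice, of strain C57BL/6 or FVB, and both carried a short hairpin against p53 together with NRAS. The protocol describes the ATRX arm as a short hairpin against ATRX, whereas the genotype label says knockout, and the labels do not settle which form applies. The culture medium was a serum-free one for neural stem cells, supplemented with FGF and EGF and with the supplements N-2 and B-27. All libraries of a genotype carry 1 line code, so that genotype and line cannot be told apart, and the strain of each line is not given in the sources used here.

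EMT factors are DNA-binding repressors and activators that loosen epithelial cell contacts and raise migration, in the embryo at gastrulation and neural crest departure and again in carcinomas. Snail proteins (Snai1, Snai2) and ZEB proteins (Zeb1, Zeb2) are zinc finger factors that bind E-boxes, short motifs in promoters such as that of E-cadherin, and recruit corepressors there. Twist1 and Twist2 are basic helix-loop-helix factors that bind E-boxes as dimers, and Prrx1 is a paired-related homeobox factor of limb and craniofacial mesenchyme. Brain tissue has no epithelium of the carcinoma kind. In neural stem cells and glioma, Zeb1 and Zeb2 are expressed as part of the neural program, and a mesenchymal state of glioblastoma is described by connective tissue genes.

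The start sites of Snai1, Twist1 and Twist2 are shown because these members moved together, with Zeb2 beside them as a member that hardly moved. Each line gives the 250 bases before the RefSeq start of the gene (build GRCm38.p6), 5′ to 3′ on the strand of the gene, with CG dinucleotides in capitals. Snai1 is chr2:167537945-167538194 on the plus strand, Twist1 is chr12:33957421-33957670 on the plus strand, Twist2 is chr1:91801211-91801460 on the plus strand, and Zeb2 is chr2:45117443-45117692 on the minus strand, the first of 4 starts listed.
Snai1: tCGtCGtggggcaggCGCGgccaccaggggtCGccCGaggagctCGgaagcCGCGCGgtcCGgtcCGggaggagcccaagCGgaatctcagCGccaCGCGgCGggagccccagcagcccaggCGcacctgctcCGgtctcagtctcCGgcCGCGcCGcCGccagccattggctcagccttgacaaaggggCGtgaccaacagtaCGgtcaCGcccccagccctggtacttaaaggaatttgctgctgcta
Twist1: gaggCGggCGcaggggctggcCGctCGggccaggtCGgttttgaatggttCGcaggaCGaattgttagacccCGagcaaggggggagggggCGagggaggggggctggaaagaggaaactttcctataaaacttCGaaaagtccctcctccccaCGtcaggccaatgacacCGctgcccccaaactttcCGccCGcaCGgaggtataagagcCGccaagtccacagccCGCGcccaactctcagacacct
Twist2: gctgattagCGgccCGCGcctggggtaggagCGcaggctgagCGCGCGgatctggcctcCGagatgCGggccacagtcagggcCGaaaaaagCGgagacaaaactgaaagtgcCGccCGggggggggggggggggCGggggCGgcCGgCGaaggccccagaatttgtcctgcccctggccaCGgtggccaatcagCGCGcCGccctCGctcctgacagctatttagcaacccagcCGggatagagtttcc
Zeb2: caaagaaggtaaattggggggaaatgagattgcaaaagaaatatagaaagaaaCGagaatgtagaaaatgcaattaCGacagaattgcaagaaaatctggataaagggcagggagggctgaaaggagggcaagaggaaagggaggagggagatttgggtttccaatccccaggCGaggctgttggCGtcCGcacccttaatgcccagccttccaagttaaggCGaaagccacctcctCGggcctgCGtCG
The Snai1 window held 27 CG dinucleotides, more than 91.8% of the 27025 RefSeq promoter windows of this length. Twist2 held 23, more than 87% of windows, and Twist1 held 18, more than 78.4%. Zeb2 held 9 and Prrx1, measured in the same way, held 4, beside a median of 6 over all windows. The windows of Snai2 and Zeb1 were not read, so these counts cover 5 of the 7 factors. Whether CG content goes with the size of a change was not tested. The general E-box CANNTG, read on both strands, was found in 66% of all windows and, among these 5, in Snai1 alone, where it took the form CACCTG that Snail and ZEB proteins bind, at position -126 from the start. The motifs CACCTG and CAGGTG, which are instances of CANNTG, were in 17.1% of all windows. The AP-1 motif TGANTCA was in 6.87% of all windows and in none of the 5. TATAAA or its reverse TTTATA was in 13% of windows, and among the 5 in Twist1 alone, at position -126. These are letter matches in a window, not measured binding.

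Zeb1 and Zeb2 are known as targets of the miR-200 family, small RNAs of epithelial cells that hold ZEB mRNA low and are themselves repressed by ZEB proteins. The mature mouse sequences from RefSeq are shown because their seeds, bases 2 to 8 in capitals, define the sites counted in the mRNAs of the members, and they fall into 2 seed groups.
mmu-miR-200b-3p: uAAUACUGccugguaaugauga
mmu-miR-200c-3p: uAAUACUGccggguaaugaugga
mmu-miR-429-3p: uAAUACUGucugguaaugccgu
mmu-miR-200a-3p: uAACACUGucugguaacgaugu
mmu-miR-141-3p: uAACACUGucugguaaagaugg
The first 3 share the seed whose complement is CAGTATT, and the last 2 share the seed whose complement is CAGTGTT. In the annotated 3′ untranslated regions (GENCODE M21), Zeb1 held 5 sites of the first kind and 4 of the second, and Zeb2 also held 5 and 4. Over 12221 genes of the table with such a region, 31.4% held any site, and 3 genes, Zeb1 and Zeb2 among them, held 9 or more. Snai2 held 2 sites, Snai1 held 1, and Twist1, Twist2 and Prrx1 held 0. One Zeb2 site of each kind is printed with its flanks as an example, the site in capitals.
Zeb2 CAGTATT site: actaccatacatCAGTATTttattatta
Zeb2 CAGTGTT site: aaaaattttgtaCAGTGTTaaggcctaa
Mature miRNAs are not measured by these libraries, so the sites describe the members and not their regulation here.

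The table held 22177228 to 32477269 reads per ATRX KO library and 34966108 to 38039847 per ATRX WT library, which were recovered exactly from the deposited log2 values. Pairs of libraries correlated across genes, which are not independent replicates, with Pearson r of at least 0.997 when they shared a genotype and of 0.662 to 0.668 when they did not. Levels are given as RPKM, reads per kilobase of gene length scaled to library size, and tests were made on log2 RPKM. In a fit of limma over 12201 tested genes, with Benjamini-Hochberg adjustment and a threshold of 0.05, 5321 genes were higher in ATRX KO and 5604 were lower. Scaling each library by its own total, instead of the library sizes that the authors used, moved the median of all fold changes by -0.20 on the log2 scale and gave 4388 higher and 6689 lower genes. Atrx itself was at 14.1, 16.6 and 17.1 RPKM in the ATRX KO libraries and at 22.3, 22.7 and 21.5 RPKM in the ATRX WT libraries. It fell by 0.48 on the log2 scale (SE 0.068, adjusted p = 0.00013 by limma). The Atrx groups do not overlap, yet Atrx mRNA was present in every ATRX KO library, and a level of mRNA does not show whether protein was made.

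Of the 7 factors, 5 rose in ATRX KO, where 43.6% of all tested genes rose, and 2 fell, where 45.9% of all tested genes fell. Either call was made for 89.5% of all tested genes. No library of one genotype overlapped the other for any of the 7, as for 90.5% of all tested genes. Most of the table thus passed the same tests, and what differs among the members is the size of the change. Snai1, Snai2, Twist1 and Twist2 passed the filter on low values, which asked for a log2 RPKM of 0 or more in 3 or more libraries, only through ATRX KO. Those 4 had to differ to be tested at all, so their number supports nothing.

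**Figure D1:**
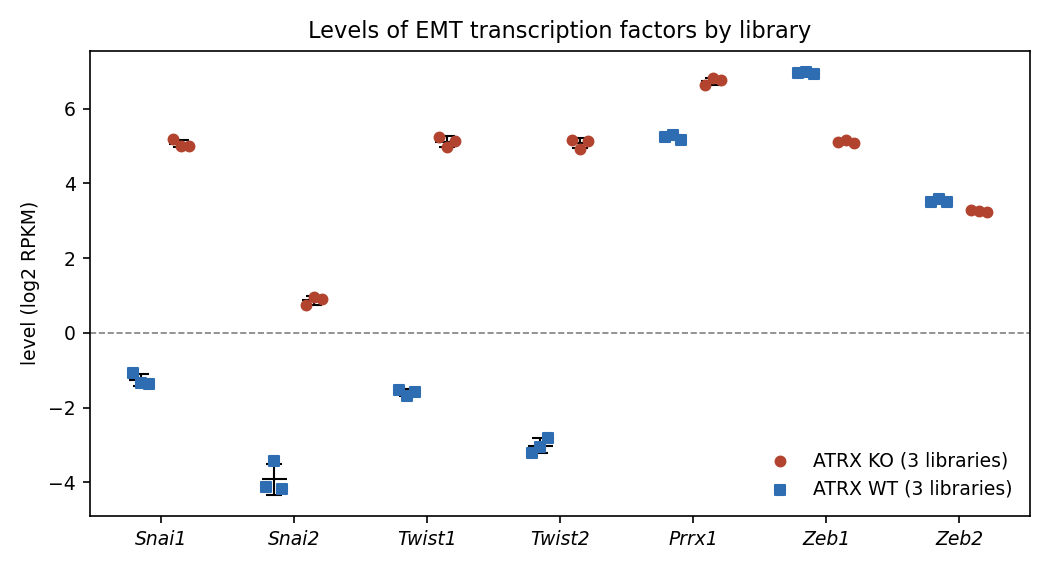
Levels of the 7 EMT factors on a log2 RPKM axis, with 1 point per library (circles ATRX KO, squares ATRX WT) and black bars for the mean ± SD of 3 libraries. Snai1, Twist1 and Twist2 lie at 4.93 to 5.25 in ATRX KO and below -1 in ATRX WT, whereas Zeb1 and Zeb2 lie higher in ATRX WT.

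Snai1, the zinc finger repressor that opens EMT in the embryo, lies on chromosome 2 from 167538195 to 167542814 (GRCm38, plus strand, ENSMUSG00000042821.7). Its log2 RPKM was 5.18, 5.00 and 5.01 in the ATRX KO libraries and -1.07, -1.34 and -1.36 in the ATRX WT libraries. The counts behind these values were 1733, 1329 and 1057 reads, against 26, 23 and 22 in ATRX WT. Every ATRX KO library was far above every ATRX WT library, in which the gene was close to silent. The rise was 6.32 on the log2 scale (SE 0.0924, adjusted p = 5.1e-11 by limma), and 129 tested genes, 1.06%, rose at least as far, Snai1 included. In reads scaled by library size the ratio of ATRX KO to ATRX WT was 88.5, with a 95% counting interval of 70 to 114. Counting intervals here cover counting error only.

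Snai2, also called Slug, the Snail protein of migrating neural crest, lies on chromosome 16 from 14705852 to 14709385 (ENSMUSG00000022676.7, plus strand). Snai2 log2 RPKM was 0.74, 0.96 and 0.91 in ATRX KO and -4.13, -3.44 and -4.17 in ATRX WT. They rest on 100, 101 and 77 reads, against 2, 5 and 2 in ATRX WT. Snai2 was thus low in ATRX KO, above 21.1% of the table, and at the edge of detection in ATRX WT. It rose by 4.79 on the log2 scale (SE 0.208, adjusted p = 3.5e-08 by limma). The read ratio was 47.1 with a 95% counting interval of 24.5 to 104, and that width shows how loosely 9 reads in all of ATRX WT fix the size. On log2(RPKM + 1) the rise was 1.41, and the stricter filter of log2 RPKM of at least 1 left the gene untested.

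Within ATRX KO, Snai1 stood at 33.4 ± 2.34 RPKM (SD, n = 3) and Snai2 at 1.8 ± 0.142 RPKM, a ratio of 18.7 ± 2.87. In ATRX WT that ratio was 12.1 ± 5.56, from so few Snai2 reads that its libraries ranged widely. The log2 ratio of Snai2 to Snai1 was lower in ATRX KO by 1.53, with an exact two-sided permutation p = 0.10, the smallest that 3 against 3 libraries allow.

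Twist1, the helix-loop-helix factor of cranial mesenchyme and neural crest, lies on chromosome 12 from 33957671 to 33959829 (ENSMUSG00000035799.6, plus strand). Its log2 RPKM was 5.25, 4.96 and 5.14 in ATRX KO and -1.52, -1.69 and -1.59 in ATRX WT. The reads were 1874, 1325 and 1194 in ATRX KO against 19, 18 and 19 in ATRX WT. The 3 ATRX WT libraries differed by less than counting error, and none comes near the ATRX KO libraries. The rise was 6.72 on the log2 scale (SE 0.0875, adjusted p = 2.8e-11 by limma), with 95 tested genes, 0.779%, rising at least as far, Twist1 included. The read ratio was 119.7, with a 95% counting interval of 92 to 159.

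Twist2, its closest relative and a factor of dermal fibroblasts, lies on chromosome 1 from 91801461 to 91848028 (ENSMUSG00000007805.4, plus strand). Twist2 log2 RPKM was 5.16, 4.93 and 5.14 in ATRX KO and -3.21, -3.04 and -2.81 in ATRX WT. Reads numbered 1422, 1042 and 959 in ATRX KO but 3, 4 and 5 in ATRX WT. Of the 7 factors Twist2 had the largest rise, 8.09 on the log2 scale (SE 0.118, adjusted p = 5e-11 by limma), and 42 tested genes, 0.344%, rose at least as far, Twist2 included. Its read ratio was 435, with a 95% counting interval of 249 to 843. Of the 3133 windows of 42 nt in the annotated Twist2 transcripts, 45.8% also occur in a predicted gene, Gm29100, which is not a row of the table. Windows were matched on either strand. The labels name a stranded kit but not whether strand was used in counting, so reads of Twist2 and of Gm29100 cannot be told apart there. Snai1 and Twist1 share no such window with another gene, and no window is shared between Snai1 and Snai2 or between Twist1 and Twist2.

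Both Twist genes stood at the same level per length in ATRX KO, 34.8 ± 3.5 RPKM for Twist1 and 33.8 ± 3.01 RPKM for Twist2 (SD, n = 3). Both were lowest in replicate 2, and they lay within 0.08 of each other on the log2 scale in each of those libraries. In ATRX WT, Twist1 was at 0.292 ± 0.0195 RPKM and Twist2 at 0.0774 ± 0.0177 RPKM. The log2 ratio of Twist2 to Twist1 was -0.04 ± 0.04 with the KO genotype and -1.42 ± 0.25 with the WT genotype, a difference of 1.38 with the exact permutation p at its smallest possible value, 0.10.

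Zeb1, a zinc finger and homeobox repressor that is prominent in neural stem cells and glioma, lies on chromosome 18 from 5591860 to 5775467 (ENSMUSG00000024238.15, plus strand). Its log2 RPKM was 5.11, 5.17 and 5.09 in ATRX KO and 6.95, 6.98 and 6.93 in ATRX WT. Counts were 6066, 5453 and 4097 reads in the former and 26879, 29730 and 28052 in the latter. The libraries of a genotype lay within 0.08 of each other, and the groups were far apart. Zeb1 fell by 1.83 on the log2 scale (SE 0.0295, adjusted p = 8.4e-11 by limma), a read ratio of ATRX WT to ATRX KO of 3.55 with a 95% counting interval of 3.49 to 3.61. It moved from above 96.3% of the table in ATRX WT to above 79.6% in ATRX KO, and so was still well expressed.

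Zeb2, the second ZEB protein, known for its part in neural crest and interneuron development, lies on chromosome 2 from 44983632 to 45117395 (ENSMUSG00000026872.17, minus strand). Zeb2 log2 RPKM was 3.28, 3.25 and 3.24 in ATRX KO and 3.51, 3.58 and 3.49 in ATRX WT. The reads were 2750, 2325 and 1832 in ATRX KO and 4006, 4538 and 4169 in ATRX WT. The groups do not overlap, but the gap is small. Zeb2 fell by 0.27 on the log2 scale (SE 0.0402, adjusted p = 0.00018 by limma), and 39.3% of tested genes fell at least as far. When each library was scaled by its own reads in the table, the difference was -0.47 (adjusted p = 3.3e-06 by limma).

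An antisense transcript, Zeb2os, starts inside the Zeb2 gene (chromosome 2, 45110707 to 45114087, plus strand) and was added to the account after its values were seen. Its reads numbered 19, 17 and 18 in the ATRX KO libraries against 96, 94 and 65 in ATRX WT, and it fell by 1.51 on the log2 scale (SE 0.184, adjusted p = 4.7e-05 by limma), or by 0.65 after quantile normalization. Where the counting ignored strand, such reads cannot be told apart from those of Zeb2. They are few beside the 6907 and 12713 reads of Zeb2 in the respective genotypes.

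With Zeb1 falling further than Zeb2, their balance changed. The log2 ratio of Zeb2 to Zeb1 was -1.83, -1.92 and -1.85 in ATRX KO and -3.43, -3.40 and -3.44 in ATRX WT. In linear terms Zeb1 exceeded Zeb2 by 3.65 ± 0.118 times in ATRX KO and by 10.7 ± 0.157 times in ATRX WT (SD, n = 3). The groups do not overlap, and their difference of 1.56 on the log2 scale had an exact two-sided permutation p = 0.10, the smallest the design allows. This ratio is taken within a library, so library size does not enter it.

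Prrx1, a homeobox factor of mesenchyme, lies on chromosome 1 from 163245119 to 163313710 (ENSMUSG00000026586.16, minus strand). Prrx1 log2 RPKM was 6.63, 6.82 and 6.75 in ATRX KO and 5.25, 5.28 and 5.17 in ATRX WT. The reads were 22383, 22017 and 16635 in ATRX KO and 10632, 11777 and 10630 in ATRX WT. Unlike the Snail and Twist genes, Prrx1 was already well expressed in every ATRX WT library, above 83.0% of the table. It rose by 1.50 on the log2 scale (SE 0.0499, adjusted p = 5.8e-09 by limma), a read ratio of 2.82 with a 95% counting interval of 2.78 to 2.86. Prrx1 exceeded Zeb1 per length by 3.06 times in ATRX KO, whereas in ATRX WT Zeb1 exceeded Prrx1 by 3.29 times.

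Set in order of level per length, the ATRX WT cultures held Zeb1 at 124 ± 2.13 RPKM, Prrx1 at 37.7 ± 1.51 and Zeb2 at 11.5 ± 0.367 (SD, n = 3). Below a wide gap came Snai1 at 0.381 ± 0.0483 RPKM, Twist1 at 0.292, Twist2 at 0.0774 and Snai2 at 0.0376 ± 0.0205, and the last pair overlapped between libraries. In ATRX KO the order began with Prrx1 at 107 ± 6.85 RPKM. Zeb1 at 34.8 ± 0.958 RPKM, Twist1, Twist2 and Snai1 followed at levels that did not differ beyond their spread. Zeb2 at 9.55 ± 0.146 RPKM and Snai2 closed the order. In these bulk cultures, fewer cells of a type and less RNA per cell cannot be told apart.

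**Figure D2:**
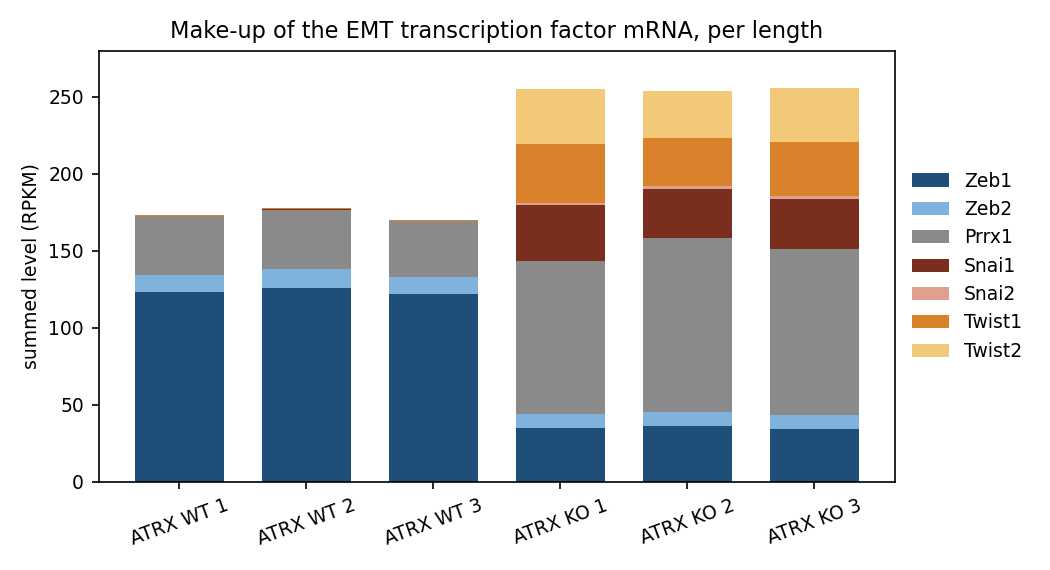
Stacked RPKM of the 7 factors in each of the 6 libraries, with 1 bar per library and 1 colour per gene, on an axis that starts at 0. Zeb1 fills most of each ATRX WT bar, while Prrx1, Snai1, Twist1 and Twist2 fill most of each ATRX KO bar.

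Summed over the 7 factors, the level per length was 255 ± 1.08 RPKM in ATRX KO and 174 ± 3.93 RPKM in ATRX WT (SD, n = 3). The Zeb pair made up 77.9% of the sum in ATRX WT and 17.4% in ATRX KO. Twist1 and Twist2 together went from 0.213% in ATRX WT to 26.9% in ATRX KO, and the Snail pair from 0.241% to 13.8%. Prrx1 made up 21.7% in ATRX WT and 41.9% in ATRX KO. Across libraries of a genotype these shares moved little, with the Zeb pair between 17% and 17.9% in ATRX KO and between 77.6% and 78.4% in ATRX WT.

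The proteins around the factors were read from lists chosen with earlier results of these data known. Each list is described by its counts and its median, beside a median of -0.02 on the log2 scale over all tested genes, of which 43.6% rose and 45.9% fell. In any list, a gene that passed the filter only through the genotype where it was high had to differ to be tested. Twist proteins bind DNA with E proteins, and Id proteins take E proteins away from them. Of 7 such dimer partners, all tested, 2 rose, 4 fell and 1 had no call, with a median of -0.15. Among the E proteins, Tcf12 fell by 0.89 (SE 0.0328, adjusted p = 1.2e-08 by limma). Tcf3 rose by 0.28 (adjusted p = 0.001 by limma), a call that was lost when libraries were scaled by their reads in the table (0.08, adjusted p = 0.18 by limma). Id2 fell by 3.19, from 97.7 RPKM in ATRX WT to 10.7 RPKM in ATRX KO, and Id4 fell by 1.65. Id3 rose by 0.97, from 139.6 to 273 RPKM. Id1 had no call at -0.06 (SE 0.0404, adjusted p = 0.21 by limma), though it fell under both other scalings, by 0.17 and 0.25.

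Corepressors are the enzymes and adaptors that Snail and ZEB proteins bring to chromatin. All 18 on the list were tested, and 10 rose, 7 fell and 1 had no call, with a median of 0.16. Ajuba, a LIM protein that bridges Snail to its partners, rose by 2.72 (SE 0.0585, adjusted p = 4.2e-10 by limma). Loxl3 and Loxl2, lysyl oxidases that act with Snail, rose by 2.21 and 1.46. Ezh2, the Polycomb methyltransferase, fell by 0.74, Hdac1, a histone deacetylase, by 0.71, and Ctbp1, the corepressor of ZEB proteins, by 0.47. Sin3a, a scaffold for deacetylases, had no call at -0.01 (SE 0.0333, adjusted p = 0.88 by limma), though it was called lower under both other scalings, at -0.10 and -0.20. The counts moved with the scaling, to 6 risen and 8 fallen when libraries were scaled by their reads in the table, and the 6 genes named here as risen or fallen kept their direction in both other scalings.

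Snail and Twist proteins are short-lived, and another list held kinases, ubiquitin ligases and deubiquitinases that set how long they last. Of 17 tested, 8 rose, 6 fell and 3 had no call, with a median of 0.11. Usp51, a deubiquitinase of Zeb1, went from 1646 reads in ATRX WT to 2 reads in ATRX KO. Its read ratio of ATRX WT to ATRX KO was 539 with a 95% counting interval of 149 to 4457. Pak1, a kinase that phosphorylates Snail, fell by 3.33, from 97.4 to 9.69 RPKM. Btrc, the F-box protein that marks phosphorylated Snail for destruction, fell by 1.54 (SE 0.0408, adjusted p = 1.4e-09 by limma). Rises were smaller, with Usp27x, a deubiquitinase of Snail, at 0.86 and Mdm2, a ubiquitin ligase, at 0.72. Gsk3b, a kinase that phosphorylates Snail for recognition by Btrc, rose by 0.75. Csnk1e (0.01) and Fbxl14 (-0.04), a casein kinase and an F-box protein, had no call, while under both other scalings both were called lower. These are mRNA levels, and protein stability was not measured.

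Signals that are known to raise Snail, Twist or ZEB genes made up a list of 24, of which 22 were tested. Of these 17 rose, 3 fell and 2 had no call, with a median of 1.03. Axl, a receptor kinase of mesenchymal cells, rose by 4.40 (SE 0.0269, adjusted p = 1.4e-12 by limma), from 8.61 to 182 RPKM. Lif, a cytokine of the interleukin-6 family, rose by 4.03, from 7.32 to 119.8 RPKM, and Met, the receptor of hepatocyte growth factor, by 4.02. The transforming growth factor beta ligands, added here after their values were seen, were all higher, Tgfb1 by 3.26, Tgfb3 by 2.63 and Tgfb2 by 1.33, while the receptor gene Tgfbr1 had no call at 0.08 (adjusted p = 0.14 by limma). Egfr fell by 2.20, from 6.2 to 1.35 RPKM. Notch1 fell by 1.21 and its ligand gene Jag1 by 1.00. Scaled by reads in the table, 16 of these 22 rose and 6 fell. Those fallen then included Tgfbr1 and Smad2, which had no call with the library sizes of the authors. They also included Stat3, which had risen by 0.10 with those sizes.

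**Figure D3:**
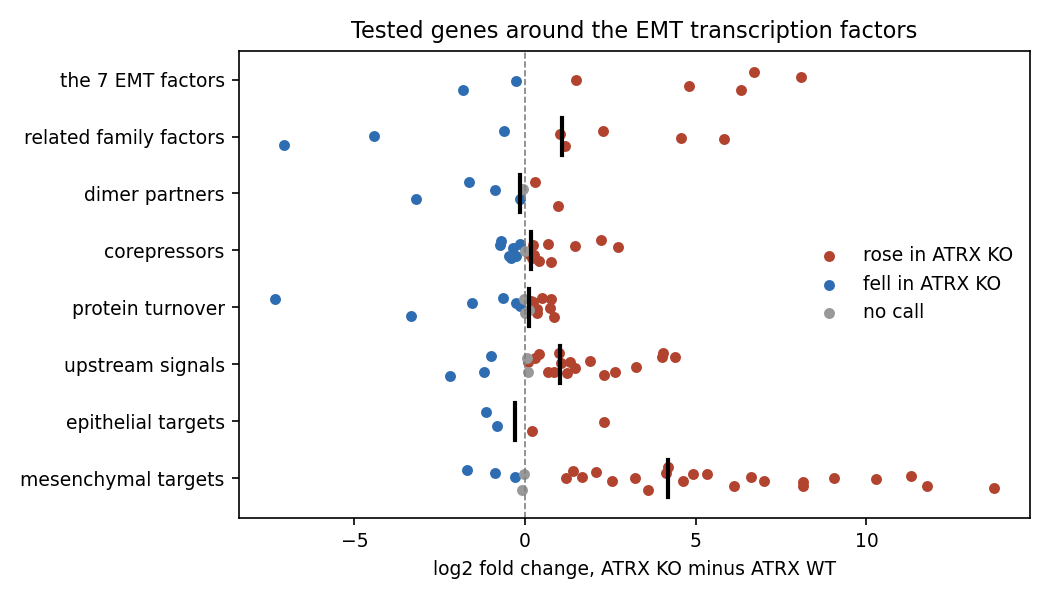
Log2 fold change, ATRX KO minus ATRX WT, of each tested gene in the member list and 7 lists around it, with 1 point per gene coloured by its call and a black bar at each list's median (none for the members). The medians lie between -0.30 and 1.10 for all lists except the mesenchymal targets, whose median is 4.20.

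Relatives of the 7 factors moved both ways. A list of 18 related or other EMT factors had 10 in the table and 8 tested, with 5 risen, 3 fallen and a median of 1.10. Foxc2 and Scx passed the filter only through ATRX KO, and Scrt1 and Tcf15 only through ATRX WT. Those genes had to differ to be tested, so their calls and p-values support nothing, and the filter bears on these counts too. Foxc2, a forkhead factor of mesenchyme, rose by 5.82 (SE 0.134, adjusted p = 6e-10 by limma), from 0.437 to 25.9 RPKM. Scx, the helix-loop-helix factor of tendon, rose by 4.57, and Prrx2, the closest relative of Prrx1, by 2.27, from 3.65 to 17.9 RPKM. Scrt1, a Snail-family repressor of neurons, went the other way. It went from 2125 reads in ATRX WT to 7 in ATRX KO, a read ratio of 199 with a 95% counting interval of 96.4 to 495. Scrt2, its close relative, named after its values were seen, was under the filter. It went from 159 reads in ATRX WT to 0, at least 34.7-fold lower against a floor of 3 reads over the group. Tcf15, a helix-loop-helix factor of the somites, went from 229 reads in ATRX WT to 3 in ATRX KO, a read ratio of 50 with a 95% counting interval of 16.9 to 244.

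The classical targets that EMT factors repress could hardly be read here. Of 35 epithelial genes 8 were in the table and 4 were tested, with 2 risen, 2 fallen and a median of -0.30. Cdh1, the E-cadherin gene, was not a row of the table. Spint1, a protease inhibitor of epithelia, rose by 2.30 to 1.53 RPKM. Tjp1, the tight junction adaptor ZO-1, fell by 1.13, from 65.8 to 30 RPKM. Jup, plakoglobin, rose by 0.21 (adjusted p = 0.0021 by limma), which was lost when libraries were scaled by their reads in the table (0.01, adjusted p = 0.78 by limma). Pkp2, a desmosomal protein, fell by 0.82, and after quantile normalization it stood at 0.01 with adjusted p = 0.95 by limma. The 4 epithelial genes under the filter, named after their values were seen, went both ways. For Grhl2, an epithelial factor that represses Zeb1, counts of 6 reads in ATRX WT against 180 in ATRX KO left it under the filter, and its read ratio was 45.8 with a 95% counting interval of 20.6 to 126. Llgl2, a cell polarity gene, had a read ratio of 5.12 (3.4 to 7.91). Its counts were 31 reads in ATRX WT against 104. Grhl1, a relative of Grhl2, went from 256 reads in ATRX WT down to 37, a read ratio of ATRX WT to ATRX KO of 4.53 with a 95% counting interval of 3.2 to 6.59. Tjp3, a tight junction adaptor, went from 213 reads to 0, at least 46.5-fold lower against a floor of 3 reads over the group.

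Genes of the mesenchymal program were high in ATRX KO. Of 31 listed, 30 were in the table and 27 tested, of which 22 rose, 3 fell and 2 had no call, with a median of 4.20. The filter bears on this median too, since all 27 had a mean log2 RPKM of at least 0 in ATRX KO and 15 did so in ATRX WT. Col3a1, a fibrillar collagen, went from 0.0447 RPKM in ATRX WT to 725 RPKM in ATRX KO, a rise of 13.73 (SE 0.216, adjusted p = 7.6e-11 by limma). Postn, a matricellular protein, rose by 11.77 to 210.4 RPKM, and Mmp3, a matrix protease, by 11.30 to 148 RPKM. Standard EMT markers were found on both sides. Fn1, fibronectin, rose by 6.13, from 5.14 to 359.8 RPKM, S100a4 by 1.67 and Acta2, smooth muscle actin, by 1.40, all 3 named after their values were seen. Cdh2, N-cadherin, fell by 1.70, from 50.5 to 15.5 RPKM, Vim, vimentin, by 0.89, from 1868 to 1008 RPKM, and Tnc, tenascin C, by 0.29. N-cadherin and vimentin are also made by neural stem cells and glia.

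Marker genes of cell types moved with the genotype beside every one of these results, and their part in the changes of the 7 factors was not tested. Of 15 neural stem and glial markers, 12 were in the table, where 2 rose and 10 fell. The 12 summed to 117 to 127 RPKM in ATRX KO and 3640.2 to 3723 RPKM in ATRX WT. Fabp7 alone, at 2757 RPKM, made up most of the ATRX WT sum. Olig1, with 34221 reads in ATRX WT, had 0 in ATRX KO and so was at least 7475-fold lower against the same floor, and Fabp7 went from 247523 reads to 4. Sox2, Nes and Olig2, of the same list, were named after their values were seen. Sox2 fell by 2.02, from 80.4 to 19.8 RPKM, and Nes by 1.69, from 91.2 to 28.3 RPKM. Olig2, which had 24851 reads in ATRX WT, had 2 in ATRX KO. Pdgfra and Cspg4 rose, by 3.21 and 2.06. All 6 neuronal markers in the table fell, with a summed level of 7.07 to 7.84 RPKM in ATRX KO and 175 to 181 RPKM in ATRX WT. Map2 alone, at 129 RPKM, made up most of the ATRX WT sum, and Dcx had 0 reads in ATRX KO. All 10 fibroblast and pericyte markers were in the table, 8 of them tested, with 7 risen and 1 fallen. The 10 summed to 1203 to 1377 RPKM in ATRX KO and 21.7 to 22 RPKM in ATRX WT, and none was at 0 in either genotype. Col3a1 (725 RPKM), Col1a1 (266) and Postn (210.4) made up most of the ATRX KO sum. Rgs5, a pericyte marker that fell by 8.01, made up most of the ATRX WT sum, at 19.2 RPKM. Thy1 and Col1a2, under the filter and named after their values were seen, went opposite ways. Thy1 went from 223 reads in ATRX WT down to 79 in ATRX KO. Col1a2 went from 26 reads up to 259, and stood at only 0.623 RPKM in ATRX KO. Of 5 endothelial markers, 3 were in the table and 2 tested, Cdh5 and Emcn, which both rose, with a sum of 14.4 to 16.4 RPKM in ATRX KO and 0.422 to 0.679 RPKM in ATRX WT. Of 5 myeloid markers Cd68 alone was in the table, and it rose by 2.25. Of 7 neural crest markers 4 were in the table and 3 tested, and all 3 rose, Pax3 from 1 read in ATRX WT to 696 in ATRX KO, Ets1 by 2.30 and Tfap2a by 1.38, with a sum of 52 to 54.3 RPKM in ATRX KO and 13.5 to 13.8 RPKM in ATRX WT. Of the 12 neural stem and glial markers, 5 reached a mean log2 RPKM of 0 in the libraries labelled ATRX KO and all 12 did in ATRX WT, so most markers of the labelled tissue were low or absent in the former.

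To see whether a stretch of chromosome moved with each factor, the tested genes within 500 kb were listed, a window chosen after the values were seen. Around Snai1 there were 11, of which 4 rose, 3 fell and 4 had no call. The nearest, Spata2, Rnf114, Slc9a8 and Ube2v1, lay between -0.18 and 0.54, and Cebpb, a leucine zipper factor 146 kb away, rose by 3.00. Around Twist2 there were 7, with Hdac4, a histone deacetylase 80.8 kb away, risen by 1.50 and the others between -1.25 and 1.09. Twist1 had 1 such gene, Hdac9, 87.8 kb away, which fell by 0.86. Snai2 had 2, Abcc1 risen by 2.35 and Fopnl fallen by 0.67. None of these neighbours changed as far as the factor it lies beside. Around Zeb1 3 of 4 genes fell, Arhgap12 by 1.36, Zfp438 by 0.84 and Kif5b by 0.78, while Svil rose by 1.38. Prrx1 had 4, among them Gorab, 71.2 kb away, which rose by 0.15, and Fmo1, a monooxygenase gene 379 kb away, which rose by 5.25, further than Prrx1. Zeb2 had Gtdc1, 56 kb away, which fell by 0.19, and Zeb2os.

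**Figure D4:**
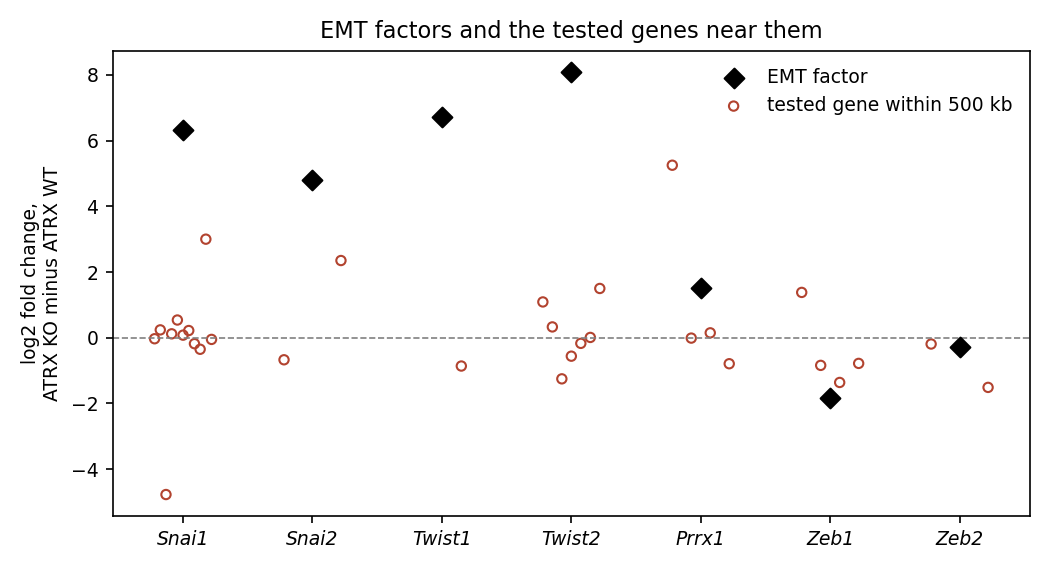
Log2 fold change, ATRX KO minus ATRX WT, of each EMT factor (black diamonds) and of the tested genes within 500 kb of it (open circles, 1 per gene, spread sideways for legibility). The diamonds of Snai1, Snai2, Twist1 and Twist2 stand above every circle in their column.

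Genes whose profile over the 6 libraries lay nearest to each factor were found by the Euclidean distance between log2 RPKM values, each centred on its own mean. With 2 genotypes this distance mostly reads the size of the change, so it is given as a description. Nearest to Snai1 were Slc9a2, a sodium-proton exchanger, at 0.22 and Saa3, an acute phase protein, at 0.27. Nearest to Twist1 were Pi16 at 0.19 and Mab21l1 at 0.27. Twist2 lay nearest to the chemokine gene Ccl20 (0.26) and the matrix protease gene Mmp10 (0.30), and Snai2 to Fam110c (0.24) and Eps8l1 (0.32). Zeb1 lay nearest to Fam167a (0.04) and Inhbb (0.06), Zeb2 to Atxn7l3b and Fam45a (both 0.04), and Prrx1 to Eps15 and Fam111a (both 0.05). The distances were smallest for Zeb1, Zeb2 and Prrx1, the 3 members with the most reads in both genotypes.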

How the data were processed

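RNA from 3 ATRX KO and 3 ATRX WT libraries was sequenced as paired-end 42-nt reads with a stranded mRNA kit, per the labels' protocols. The authors deposited log2 RPKM for 13069 genes. The submitters' processing notes name STAR 2.5.3a, Trim Galore and FastQC, then edgeR 3.20.9 with HTSeq 0.11.2, and the builds mm9 and mm10 with no role for either. The filter behind the table and the strand setting are not given in the sources used here. Reads were recovered for 100% of values within 0.0001 of a whole number, with a mean prior count of 2, and RPKM, read ratios and exact 95% counting intervals were computed from them. The main test was limma 3.58.1 (R 4.3.3) on the deposited log2 values, two-sided, with 4 residual degrees of freedom. A gene entered with log2 RPKM at or above 0 in 3 or more of 6 libraries, and 868 did not. The steps were tested on simulated data. Per list, up to 3 rises, 3 falls and, for dimer partners, corepressors and protein turnover, 2 genes without a call were named, and 1 gene that the rule takes is not reported here. Ccn2 was read as Ctgf. The members and lists were chosen with earlier results of these data known. Coordinates and transcripts are from GENCODE M21 (GRCm38) and, for promoters and miRNAs, RefSeq. Nothing says that libraries of a genotype came from separate cultures, so p-values measure only the spread between these samples, and that may be technical.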

Additional observations from a re-analysis of the deposited data

How the results depend on the processing

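Under all alternatives run, the 7 factors kept their direction and their call, except that Snai2 had no test under the stricter filter of log2 RPKM of at least 1. The fold change ranged from 4.60 to 7.30 for Snai1, 4.75 to 7.82 for Twist1, 4.95 to 9.19 for Twist2, 1.41 to 5.96 for Snai2, -2.03 to -1.80 for Zeb1, -0.47 to -0.25 for Zeb2 and 1.30 to 1.55 for Prrx1. With 1 library left out, Zeb2 lay between -0.29 and -0.25. Directions turned for some other named genes. Csnk1e went to -0.13 after quantile normalization, to -0.18 with scaling by reads in the table and ranged from -0.01 to 0.04 with 1 library left out, at -0.01 without ATRX KO replicate 1. Sin3a ranged from -0.03 to 0.01 with 1 library left out and went to 0.00 without ATRX KO replicate 1, and to 0.01 without ATRX KO replicate 3 or ATRX WT replicate 2. Pkp2, at -0.82 as reported, went to 0.01 after quantile normalization. Stat3 turned from risen to fallen with scaling by reads in the table. The planned edgeR and DESeq2 tests were not run, because the deposited unit is log2. limma voom on recovered reads, chosen after seeing the data, took their place and changed no call of the 7. With the number in the titles as a replicate block, 5287 genes rose and 5564 fell and no call of the 7 changed. Same-numbered libraries showed no strong shared deviation (r of -0.05, 0.05 and -0.04). Such values cannot tell whether the samples were handled in pairs. Low counts limit Snai2 and Twist2 in ATRX WT, with 9 and 12 reads.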
